A study of Mus musculus with 8 samples.

Results

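Solute carriers are the membrane proteins, named Slc with a family number, that move sugars, lactate, amino acids, metals, ions, vitamins and mitochondrial metabolites across membranes. The genes described here are the 241 Slc genes that reached a working level in mouse testis, of 347 Slc genes on the array. A gene was taken when a probe set named that gene alone. Where a gene had several such probe sets, the 1 with the highest mean log2 intensity over the 8 arrays was used, and the gene was kept when that probe set reached log2 4, an intensity of 16, in at least 2 arrays. The other 106 Slc genes fell short of that floor. The members were thus chosen by their log2 intensity over the 8 arrays, so those levels are descriptions, and a member that reached the floor only through 1 group had to differ between groups. The members just inside the floor, by their second-highest array, were Slc2a2 at log2 4.06, Slc32a1 at 4.11 and Slc18a1 at 4.20. Just outside were Slc6a14 at 3.99, Slc2a9 at 3.97 and Slc7a3 at 3.92.

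Whole-testis RNA of 28-day-old male mice was measured, with 1 array per sample. All 3 groups carried 2 floxed alleles of Dmrt1, which encodes a DM-domain transcription factor of Sertoli and germ cells, on a mixed C57BL6/6J and 129 background. The 2 controls had no Cre. In 2 samples Cre was driven by the Dhh promoter and in 4 by the Sf1 (Nr5a1) promoter, both described by the submitters as specific to Sertoli cells. The labels call the samples biological replicates. Both genes are also expressed elsewhere, Nr5a1 in Leydig cells and Dhh in Schwann cells.

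In the seminiferous epithelium Sertoli cells and the tight junctions between them separate the meiotic and postmeiotic germ cells from blood, so nutrients reach those cells through carriers. Sertoli cells take up glucose and export lactate, which spermatocytes and spermatids burn as fuel, and sperm later use carriers for fructose, lactate, bicarbonate and sodium-proton exchange. Somatic cells of the testis, among them macrophages and the steroid-producing Leydig cells, carry their own iron, amino acid and phosphate transporters.

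Several features of the arrays bear on every value below. Dmrt1 itself lay between 7.10 and 7.89 on the log2 scale in Sf1-Cre, at 8.50 and 8.76 without Cre and at 10.43 and 9.94 under the Dhh-Cre label. The label is thus not borne out by a fall of this probe set, and "labelled Dhh-Cre" is written throughout. After recentring each array on the median of 13 housekeeping genes, Dmrt1 differed from control by -0.14 ± 0.32 (SE) in the arrays labelled Dhh-Cre and by -2.79 ± 0.27 in Sf1-Cre. That recentring moves the median of all genes tested from 0.34 to -1.36 in Sf1-Cre and from 0.54 to -1.16 in the arrays labelled Dhh-Cre, so it turns the sign of moderate differences, and it is given beside each class. The median of that list lay 1.70 and 1.69 above control, although the median difference of its own 13 genes was 0.78 in Sf1-Cre and 0.76 under the Dhh-Cre label, with 10 genes higher and Tbp lower in each. A second recentring, chosen after seeing the data, removed the median deviation of those genes from their own means, a step of 0.86 in both comparisons. Under it Dmrt1 differed by 0.69 ± 0.25 under the Dhh-Cre label and -1.95 ± 0.22 in Sf1-Cre. Where centring is named without qualification below, the first and larger step is meant. The 3′ to 5′ intensity ratio of the beta-actin control probe sets ranged from 9.45 to 13.6 in the 6 Cre arrays, against 4.44 and 4.89 without Cre, while that of Gapdh ranged from 1.67 to 3.30, against 2.96 and 3.58. All 15 genes of a spermatid list were lower in Sf1-Cre and 14 in the arrays labelled Dhh-Cre, with summed intensities of 95433 to 107593 in the controls, 3111 to 12280 in Sf1-Cre and 1872 to 14397 under the Dhh-Cre label. All 12 genes of a macrophage list were higher in both. In whole testis, fewer cells of a type and less RNA per cell cannot be told apart, and the part of cell composition in the results below was not tested.

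Against control, 140 Slc carriers were higher and 62 lower in Sf1-Cre at an adjusted p under 0.05, where 46.6% of all 13802 genes tested were higher and 33.2% lower (79.8% in either direction). In the arrays labelled Dhh-Cre 157 were higher and 53 lower, beside 49.1% and 30.5% of all genes (79.6% in all). As shares of the 241 members these are 58.1% and 25.7% in Sf1-Cre and 65.1% and 22% under the Dhh-Cre label. Every Sf1-Cre array lay above both controls for 147 members and below both for 64, beside 50% and 36% of all genes, and both arrays labelled Dhh-Cre did so for 165 and 59, beside 56% and 35.1%. The median difference of the members was 0.88 on the log2 scale in Sf1-Cre (0.34 over all genes) and 1.10 in the arrays labelled Dhh-Cre (0.54). With values under the floor set to it, the medians were 0.76 and 0.88. Both comparisons use the same 2 controls, so they are not independent. With housekeeping centring the majority turned to 43 higher and 142 lower in Sf1-Cre, beside 14.8% and 68.3% of all genes, and to 56 higher and 120 lower under the Dhh-Cre label, beside 14.6% and 61.9%. With the smaller recentring by gene the counts lay between, at 93 higher and 97 lower in Sf1-Cre (27.2% and 50.7% of all genes) and 98 and 76 under the Dhh-Cre label (29.2% and 44.3%).

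The split differed with the control level. Among the 202 members whose control mean reached log2 4, 106 were higher and 61 lower in Sf1-Cre, beside 41.6% and 37.4% of all genes with that control level. Of the 39 members under it in the controls, 34 were higher and 1 lower. Those 39 qualified through the Cre arrays, and 84.5% of all such genes were higher.

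**Figure D1:**
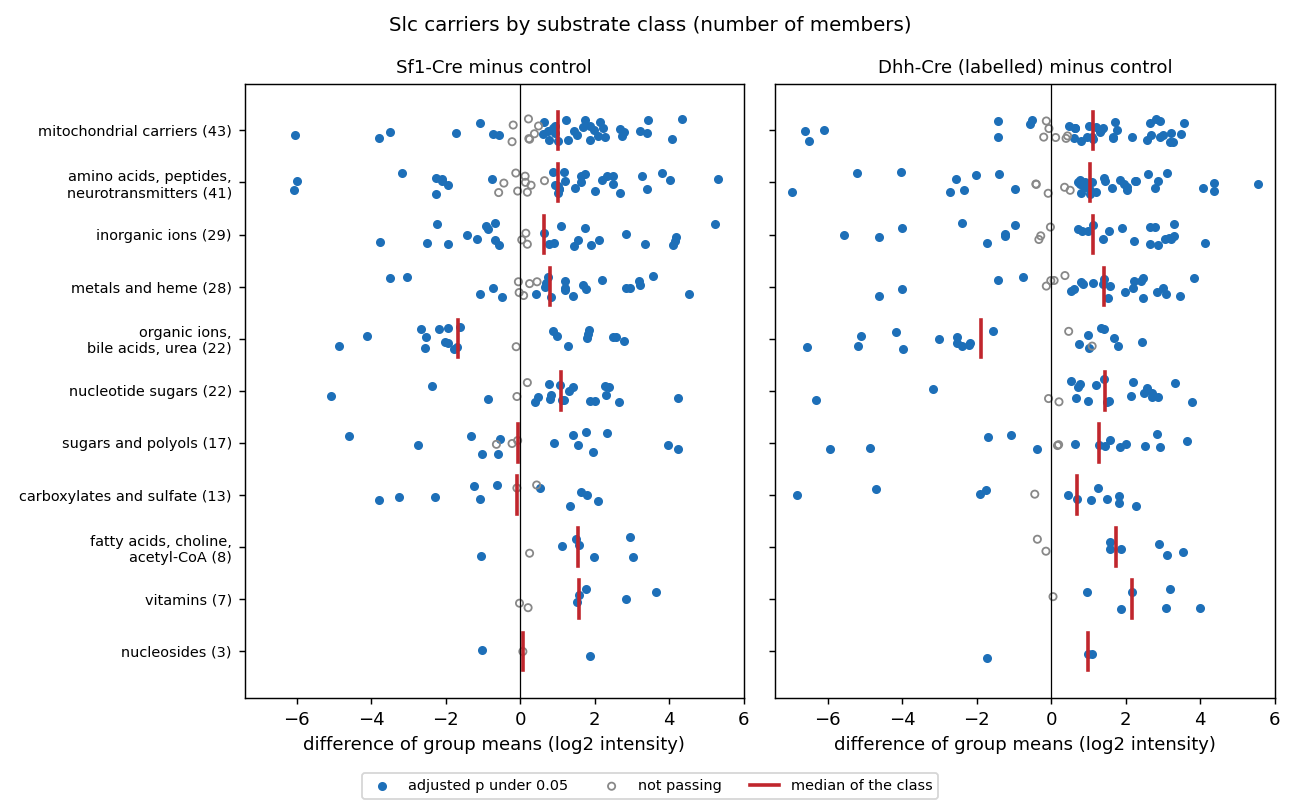
Difference from control (log2 intensity, horizontal axis) of each Slc carrier by substrate class, with the number of members in brackets, for Sf1-Cre (left) and the arrays labelled Dhh-Cre (right). Filled points passed at adjusted p under 0.05, open points did not, and red bars are class medians. The class of organic ions, bile acids and urea has the lowest median in both panels, -1.67 and -1.87. The 2 classes not drawn hold 5 genes that are not carriers and 3 of other function.

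Classes follow mainly the Slc family number, so a member can sit outside the class of its substrate, as do Slc16a10, Slc17a7, Slc26a2 and Slc35f2. Beside the class counts below, 46.6% of all genes were higher and 33.2% lower in Sf1-Cre. Under the Dhh-Cre label the shares were 49.1% and 30.5%. With housekeeping centring they were 14.8% and 68.3%, and 14.6% and 61.9%. Carriers of monocarboxylates, citrate and sulfate made up 13 members, of which 5 were higher and 6 lower in Sf1-Cre and 8 higher and 4 lower in the arrays labelled Dhh-Cre. With housekeeping centring none was higher in either, while 9 and 8 were lower. Slc16a7 encodes MCT2, a high-affinity importer of lactate and pyruvate that sperm carry. Its log2 level was 12.72 and 12.50 without Cre, 5.0 and 6.56 under the Dhh-Cre label, and 10.08, 9.31, 8.37 and 7.54 with Sf1-Cre. Both controls lay above every Cre array, and the Sf1-Cre arrays lay between them and the arrays labelled Dhh-Cre without overlap. The difference from control was -3.78 ± 0.70 (SE) in Sf1-Cre, 13.8-fold lower with adjusted p = 0.00134, and -6.82 ± 0.81 under the Dhh-Cre label, 113-fold lower with adjusted p = 0.000113. Slc13a5 encodes NaCT, the sodium-citrate cotransporter. It read 9.62, 9.31, 8.72 and 8.15 in the 4 Sf1-Cre arrays, 6.24 and 6.82 for the Dhh-Cre label and 11.43 and 11.02 in both controls. It was 4.84-fold lower in Sf1-Cre and 25.9-fold lower in the arrays labelled Dhh-Cre, with no overlap between any 2 of the groups. Another probe set of Slc13a5 differed by -2.43 and -2.70, so the deeper fall under the Dhh-Cre label rests on the probe set used. Slc13a4, a sodium-sulfate cotransporter, was lower in both Cre groups, at least 7.03-fold in Sf1-Cre, where its mean lay under the floor, and 3.35-fold under the Dhh-Cre label. It was at least 2.1-fold lower in Sf1-Cre than under that label (adjusted p = 0.00571).

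Others of the Slc16 family differed in direction. Slc16a9 was lower as well, at -1.24 ± 0.29 (adjusted p = 0.0044) and -1.90 ± 0.33 (adjusted p = 0.000979), the first not passing without control replicate 1 (-0.88, adjusted p = 0.0513). Slc16a1 (MCT1), a widely expressed lactate carrier, was 9.42 and 8.89 without Cre, 10.42 and 10.88 under the Dhh-Cre label, and 10.36, 10.88, 10.38 and 10.32 with Sf1-Cre, which is 2.52-fold and 2.82-fold above control. Slc16a3 (MCT4), which exports lactate from glycolytic cells, was 1.44-fold and 1.62-fold above control. Both turn negative with housekeeping centring, to -0.37 and -0.20 for Slc16a1 and to -1.17 and -1.0 for Slc16a3. The Slc16a3 call against control in Sf1-Cre was lost without control replicate 1 (0.35, adjusted p = 0.19) and without Sf1-Cre replicate 3 (0.48, adjusted p = 0.0591). Without Dhh-Cre replicate 1 or control replicate 1 its other call was lost as well (0.51 in each, adjusted p = 0.0914 and 0.0903). Slc16a13 and Slc16a4, less studied members of the family, rose by 2.08 and 1.64 in Sf1-Cre and by 2.28 and 1.83 in the arrays labelled Dhh-Cre. With centring on the housekeeping genes Slc16a13 stood at 0.39 and 0.58 and Slc16a4 at -0.06 and 0.14, and none of these passed.

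The sugar and polyol class held 17 members, with 8 higher and 6 lower in Sf1-Cre and 10 higher and 5 lower in the arrays labelled Dhh-Cre. Housekeeping centring left 3 higher in each, beside 10 and 8 lower. Slc2a5 encodes GLUT5, the fructose transporter of sperm and intestine. It read 11.44 and 11.47 without Cre, 5.32 and 5.74 under the Dhh-Cre label, and 9.31, 8.99, 8.18 and 8.34 with Sf1-Cre. No 2 groups overlapped, and the order was control, Sf1-Cre and then the arrays labelled Dhh-Cre. The carrier was 6.73-fold lower in Sf1-Cre (difference -2.75 ± 0.33, adjusted p = 0.000111) and 60.9-fold lower in the arrays labelled Dhh-Cre (-5.93 ± 0.38, adjusted p = 6.59e-06). Slc5a4b, a paralogue of the sodium-glucose cotransporters, went from 7.0 and 6.77 in the controls to between 2.0 and 2.53 in the 6 Cre arrays, at least 7.39-fold lower in both. Slc2a8 (GLUT8), an intracellular hexose transporter, was 2.5-fold and 2.14-fold lower.

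Slc2a3 (GLUT3) is the glucose transporter of neurons and sperm. Its arrays read 12.08, 11.91, 11.62 and 11.09 in the 4 Sf1-Cre arrays, 10.42 and 10.81 for the Dhh-Cre label and 12.28 and 12.34 in both controls. The difference of -0.64 ± 0.28 in Sf1-Cre did not pass (adjusted p = 0.0636), and that of -1.69 ± 0.32 under the Dhh-Cre label did (adjusted p = 0.00145). Slc2a1 (GLUT1), the basal glucose transporter, was 2.65-fold and 2.72-fold above control with the Cre arrays all between 11.83 and 12.02, but stood at -0.29 and -0.25 with housekeeping centring. Other probe sets of Slc2a1 rose further before centring, by 2.30 and 2.31 in Sf1-Cre and by 2.16 and 2.15 under the Dhh-Cre label. The clearest rises of the class were in Slc50a1, the mouse member of the SWEET family, and in Slc45a3, a sucrose-type transporter first known from prostate. Slc50a1 went from control readings of 4.21 and 4.89 to 8.20 and 8.19 under the Dhh-Cre label and 8.57, 8.50, 8.97 and 9.02 in Sf1-Cre, 18.6-fold and 12.5-fold higher. For Slc45a3 the 4 Sf1-Cre arrays spread over 7.24, 7.64, 8.32 and 9.44, and the rise was 15.7-fold, against 7.14-fold under the Dhh-Cre label. With housekeeping centring Slc50a1 still rose, by 2.52 and 1.95. For Slc45a3 the centred rise of 2.28 in Sf1-Cre passed and the 1.14 under the Dhh-Cre label did not. Slc2a2 (GLUT2), the liver and islet glucose transporter, lay at 1.89 in both controls and at no more than 4.18 in any Cre array, so it has no usable fold.

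**Figure D2:**
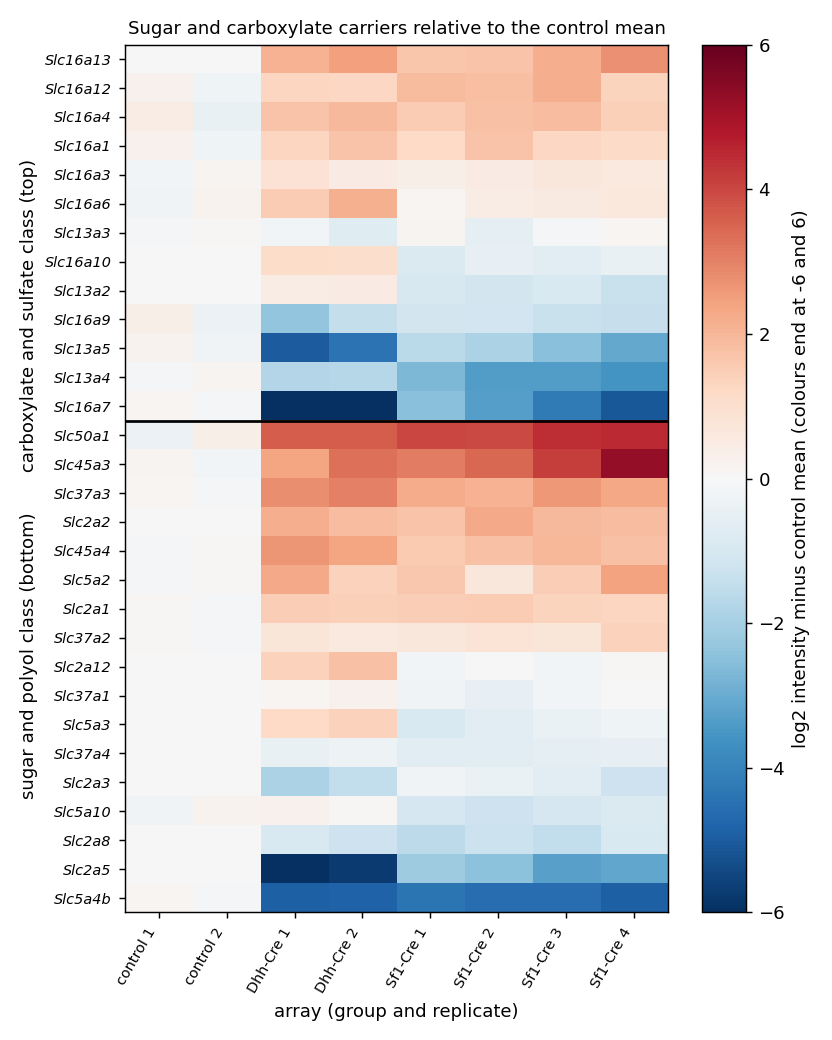
Log2 intensity minus the control mean (colour) for the 13 carboxylate and sulfate carriers (top) and 17 sugar and polyol carriers (bottom), 1 column per array, genes ordered by their difference in Sf1-Cre within each class. Slc16a7, Slc13a5 and Slc2a5 are darkest blue in the 2 arrays labelled Dhh-Cre, and Slc5a3, Slc16a10 and Slc2a12 are red only there.

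Carriers of organic ions, bile acids and urea were 22 members, and 12 of them were lower in each comparison, with 9 higher in Sf1-Cre and 8 higher in the arrays labelled Dhh-Cre. With housekeeping centring 15 and 16 were lower and 2 and 1 higher, beside 68.3% and 61.9% of all genes lower. In Sf1-Cre the centred class was thus close to the share of all genes. Before centring, the Slc22 family of organic cation, anion and carnitine transporters accounted for 8 of the 12 falls. Of its 11 members 8 were lower and 3 higher in both comparisons. Slc22a14, a member expressed in male germ cells, read 11.31 and 11.40 without Cre, 4.55 and 5.04 under the Dhh-Cre label, and 8.36, 7.41, 6.86 and 6.31 with Sf1-Cre. It was 17.4-fold lower in Sf1-Cre (adjusted p = 0.000125) and 94.7-fold lower in the arrays labelled Dhh-Cre (adjusted p = 2.54e-05), and the 3 groups did not overlap. Slc22a16 (CT2) carries carnitine in the male tract. Its levels were 10.41, 9.92, 9.36 and 8.81 in the 4 Sf1-Cre arrays, 6.11 and 7.0 for the Dhh-Cre label and 11.69 and 11.63 in both controls, a fall of 4.09-fold in Sf1-Cre and 34.4-fold under the Dhh-Cre label. Slc22a15 fell 6.3-fold and 36.4-fold.

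Against these, Slc22a5 (OCTN2), the general plasma membrane carnitine transporter, was 1.97-fold and 2.02-fold above control, a rise that turns to -0.72 and -0.68 with housekeeping centring. Its call under the Dhh-Cre label was lost without Dhh-Cre replicate 2 (0.84, adjusted p = 0.0552) or control replicate 2 (0.87, adjusted p = 0.0563). Slc22a21, a paralogue of Slc22a5, was 3.47-fold and 4.55-fold lower. Slc17a7, the vesicular glutamate transporter VGLUT1, went from 8.05 and 7.74 in the controls to between 2.84 and 3.98 in the Cre arrays, at least 14.8-fold lower in both. The urea transporter Slc14a1 reached the floor only in Sf1-Cre, where its arrays read 4.64, 4.23, 4.21 and 4.65 against 1.91 and 1.80 in the controls. Slc10a3, an X-linked orphan of the bile acid family, was at least 4.34-fold and at least 3.43-fold higher, from controls under the floor.

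The amino acid, peptide and neurotransmitter class was the second largest, with 41 members. In Sf1-Cre 23 were higher and 9 lower, and under the Dhh-Cre label 27 and 9, which became 10 and 25 and then 8 and 20 with housekeeping centring. Slc1a2 encodes GLT-1, the main glutamate uptake carrier of astrocytes. It read 9.55 and 9.81 without Cre, 2.35 and 3.09 under the Dhh-Cre label, and 4.61, 3.64, 3.25 and 2.97 with Sf1-Cre. Both Cre means lay under the floor, so the falls are stated as at least 51.2-fold. Slc36a3, a testis-type member of the proton-coupled amino acid transporters, went from control readings of 8.81 and 9.43 to 3.71 and 4.10 under the Dhh-Cre label and 3.18, 3.20, 2.69 and 3.49 in Sf1-Cre, at least 34.8-fold lower in both. Slc6a16, an orphan of the neurotransmitter transporter family, was 9.08-fold and 16.3-fold lower. Slc7a11 (xCT), the cystine-glutamate exchanger that supplies cysteine for glutathione, fell 3.85-fold and 5.86-fold.

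The rises of the class included both chains of a heterodimer. Slc3a2, the heavy chain 4F2hc, rose 5.03-fold and 4.12-fold, and its light chain partner Slc7a5 (LAT1), an importer of large neutral amino acids, rose 2.76-fold and 2.73-fold. With housekeeping centring Slc7a5 stood at -0.23 and -0.24 and Slc3a2 at 0.63 and 0.35, of which only the Slc3a2 value in Sf1-Cre passed. Slc43a3, placed here by its family but known to carry purine nucleobases, showed the largest rise of all members in Sf1-Cre. Its arrays read 4.24 and 4.14 without Cre, 9.91 and 9.56 under the Dhh-Cre label, and 9.64, 9.36, 9.33 and 9.64 with Sf1-Cre, 39.4-fold higher in Sf1-Cre (5.30 ± 0.17, adjusted p = 4.41e-07) and 46.7-fold higher in the arrays labelled Dhh-Cre. All 6 Cre arrays lay within 9.33 to 9.91, and the rise stayed at 3.60 and 3.85 with centring.

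The small neutral amino acid carriers Slc38a1 and Slc38a2, which supply glutamine, rose 9.71-fold and 4.59-fold in Sf1-Cre. Under the Dhh-Cre label they rose 8.63-fold and 4.78-fold. By the probe set used, all 4 rises passed with centring as well. Other probe sets rose less before centring, by 1.02 and 0.83 for Slc38a1 and by 1.0 to 1.21 for the 2 of Slc38a2. Each of these lay under the centring step of 1.70 and 1.69. Slc18b1, a vesicular polyamine transporter, rose 14-fold and 16.8-fold. The peptide transporter Slc15a2 (PEPT2) read 8.54, 7.94, 7.94 and 7.36 in the 4 Sf1-Cre arrays, 7.36 and 6.25 for the Dhh-Cre label and 4.31 and 3.54 in both controls, at least 15.4-fold and at least 7.01-fold higher. Its relative Slc15a1 (PEPT1) was at 6.33 in Dhh-Cre replicate 2 and at 4.89 or less in every other array. The Sf1-Cre arrays of Slc15a1 lay between 2.03 and 3.02, under the floor and at least 1.35-fold below control (adjusted p = 0.0243), a call that did not pass without control replicate 1 (-1.64, adjusted p = 0.16) or Sf1-Cre replicate 3 (-2.0, adjusted p = 0.0526). The taurine carrier Slc6a6 did not pass by its brightest probe set, at 0.19 ± 0.30 in Sf1-Cre and -0.41 ± 0.35 under the Dhh-Cre label, while another probe set differed by -4.77 and -6.04.

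Mitochondrial carriers of the Slc25 family were 43 of the 44 on the array, in the class with the most members. They carry ADP, phosphate, aspartate, glutamate, ornithine and cofactors across the inner membrane. In Sf1-Cre 29 were higher and 7 lower, and under the Dhh-Cre label 30 and 7. With housekeeping centring the counts became 8 higher and 23 lower, and 12 and 21. The 7 falls in Sf1-Cre ran from modest to large, with 4 of them between -0.57 and -1.73. Slc25a41, a calcium-independent ATP-Mg/phosphate carrier, went from 9.96 and 9.82 in the controls to between 3.25 and 4.36 in the 6 Cre arrays, at least 59.3-fold lower in both. Slc25a54, a related carrier, read 10.06 and 9.89 without Cre, 3.26 and 3.70 under the Dhh-Cre label, and 7.79, 6.64, 6.18 and 5.30 with Sf1-Cre, 11.3-fold lower in Sf1-Cre and at least 62.9-fold lower under the Dhh-Cre label. Slc25a2 (ORNT2), an intronless ornithine carrier, fell 13.9-fold and at least 44-fold. No 2 of the 3 groups overlapped for either of them.

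The adenine nucleotide translocators, which exchange ADP and ATP, differed among themselves. Slc25a31 (ANT4), the isoform of male germ cells, read 10.02, 10.09, 9.57 and 9.29 in the 4 Sf1-Cre arrays, 10.37 and 10.43 for the Dhh-Cre label and 10.32 and 10.61 in both controls. Its difference was -0.72 ± 0.24 in Sf1-Cre (adjusted p = 0.0253) and -0.06 ± 0.28 in the arrays labelled Dhh-Cre (adjusted p = 0.848). The call in Sf1-Cre was lost without Sf1-Cre replicate 3 (-0.66, adjusted p = 0.0587), control replicate 1 (-0.86, adjusted p = 0.0514) or control replicate 2 (-0.58, adjusted p = 0.155). The somatic isoforms rose: Slc25a4 (ANT1) by 0.88 and 1.20 and Slc25a5 (ANT2) by 1.69 and 1.70. Centred on the housekeeping genes, Slc25a4 stood at -0.82 and -0.49 and Slc25a5 at -0.01 and 0.0. Other probe sets of both genes rose further before centring, by 2.97 to 3.38 for the 2 others of Slc25a4 and, for 6 of the 7 others of Slc25a5, by 2.58 to 3.52. Among the largest rises were Slc25a12 (aralar), the aspartate-glutamate carrier of the malate-aspartate shuttle, and Slc25a22, a glutamate carrier. Slc25a12 went from control readings of 4.09 and 4.0 to 7.87 and 7.36 under the Dhh-Cre label and 8.16, 8.17, 8.34 and 8.87 in Sf1-Cre, 20.3-fold and 11.9-fold higher. Slc25a22 rose at least 5.74-fold and at least 3.17-fold from controls under the floor. Slc25a23, a calcium-regulated ATP-Mg/phosphate carrier, rose 10.7-fold and 11.2-fold. Slc25a12 and Slc25a23 kept a positive difference that passed with centring. Slc25a22 stayed positive too, but it is a member through the Cre arrays alone, so its rise is given without a test.

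Carriers of protons, sodium, calcium, chloride, bicarbonate and phosphate were 29 members. In Sf1-Cre 15 were higher and 11 lower, and under the Dhh-Cre label 18 and 8, against 5 and 18 and then 10 and 15 with housekeeping centring. The falls included exchangers of the sperm tail. Slc9b1 (NHA1), a sodium-proton antiporter expressed in the sperm flagellum, read 11.17 and 11.15 without Cre, 6.27 and 6.84 under the Dhh-Cre label, and 9.66, 9.26, 8.71 and 8.09 with Sf1-Cre, 4.69-fold lower in Sf1-Cre and 24.4-fold lower under the Dhh-Cre label. Other probe sets of Slc9b1 differed by -2.89 and -4.13 and by -1.23 and -1.24. Slc26a8, a testis anion transporter of the sperm annulus, read 8.91, 8.29, 7.54 and 6.88 in the 4 Sf1-Cre arrays, 6.35 and 6.41 for the Dhh-Cre label and 10.41 and 10.38 in both controls. Its falls were 5.62-fold (adjusted p = 0.00188) and 16.2-fold (adjusted p = 0.000293). Slc34a2, a sodium-phosphate cotransporter, fell 13.6-fold and 47.5-fold from 9.99 and 10.02 in the controls.

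**Figure D3:**
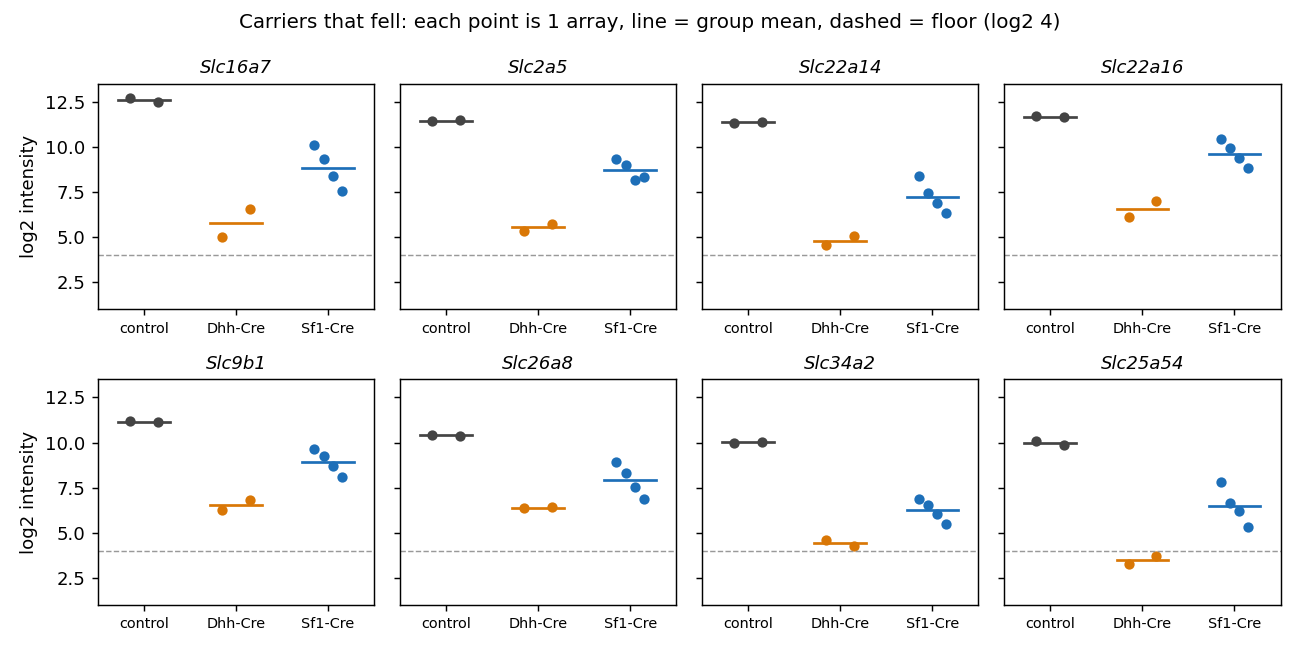
Log2 intensity of 8 carriers that fell, 1 point per array in the 2 controls, the 2 arrays labelled Dhh-Cre and the 4 Sf1-Cre arrays, with group means as lines and the floor of log2 4 dashed. In each panel the controls are highest, the Sf1-Cre arrays in the middle and the arrays labelled Dhh-Cre lowest. The 8 are a selection. Of all members lower in both comparisons, 33 did not pass between the Cre groups, 13 were higher in Sf1-Cre and 3 lower.

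Several exchangers rose. Slc9a7 acidifies and regulates the trans-Golgi lumen and is X-linked. It read 1.63 and 1.79 without Cre, 4.79 and 4.75 under the Dhh-Cre label, and 6.22, 6.91, 7.62 and 6.98 with Sf1-Cre, so the 3 groups were apart. Its controls lay under the floor, so it is a member through the Cre arrays alone, and its rise is given without a test as at least 7.63-fold in Sf1-Cre and at least 1.71-fold under the Dhh-Cre label. Slc9a9, its endosomal relative, rose 18.1-fold and 8.89-fold, though another probe set of the gene differed by -0.37 and -0.86. Slc4a3 (AE3), a chloride-bicarbonate exchanger, rose 17.7-fold and 17.6-fold, and Slc4a2 (AE2) rose 3.35-fold and 6.88-fold. Slc26a7, an anion exchanger and channel, already stood at 7.55 and 7.58 in the controls and rose 17.2-fold and 7.38-fold. With centring the rises of Slc9a9, Slc4a3, Slc26a7 and Slc4a2 stayed positive and passed, except that Slc4a2 was at 0.05 in Sf1-Cre. That of Slc9a7 stayed positive too, again without a test. Slc9a8, an exchanger of the acrosome and Golgi, did not pass either way, at 0.04 ± 0.14 and -0.33 ± 0.16, at adjusted p = 0.784 and 0.0951, while another probe set of the gene differed by -1.69 and -1.85. Slc20a1 (PiT1), a phosphate importer, rose by 0.76 and 1.12 and turned to -0.93 and -0.58 with centring.

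Metal and heme carriers were 28 members, with 18 higher and 5 lower in Sf1-Cre and 20 higher and 4 lower in the arrays labelled Dhh-Cre. Centring gave 7 and 18, and 9 and 13. Of the 19 zinc carriers (Slc30 exporters and Slc39 importers), 12 were higher and 4 lower in each comparison, and with centring 3 and 4 were higher and 13 and 11 lower. Slc40a1 is ferroportin, the iron exporter of macrophages, and had the largest rise of the class in both comparisons. It read 4.91 and 4.82 without Cre, 8.66 and 8.73 under the Dhh-Cre label, and 9.40, 9.12, 9.27 and 9.83 with Sf1-Cre, 23.2-fold higher in Sf1-Cre (4.54 ± 0.20, adjusted p = 9.47e-07) and 14.2-fold higher under the Dhh-Cre label. Slc11a1 (NRAMP1), a metal transporter of the phagosome in macrophages, went from control readings of 4.85 and 4.52 to 6.89 and 7.28 under the Dhh-Cre label and 7.99, 8.14, 8.28 and 8.57 in Sf1-Cre, 11.8-fold and 5.29-fold higher. Beside these, the summed intensity of the 12 macrophage genes ran from 33283 to 38482 in Sf1-Cre and was 26941 and 27188 under the Dhh-Cre label, against 5304 and 5603 without Cre. The part of macrophage number in both results was not tested.

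The zinc carriers that fell in both comparisons were Slc39a12, Slc39a3 and Slc30a3, the last (ZnT3) known for loading zinc into vesicles. Slc39a3 differed by -0.72 ± 0.20 and -0.76 ± 0.23, and neither passed without control replicate 2 (adjusted p = 0.076 and 0.0839). Slc39a12 was at 6.2 and 5.97 in the controls and no higher than 2.65 in any Cre array, at least 4.24-fold lower in both. Slc30a3 read 6.64, 5.66, 5.25 and 4.67 in the 4 Sf1-Cre arrays, 3.83 and 4.13 for the Dhh-Cre label and 8.81 and 8.40 in both controls, 8.3-fold and at least 24.4-fold lower. The zinc importer Slc39a6 (ZIP6) fell 2.1-fold in Sf1-Cre but differed by 0.37 ± 0.18 (adjusted p = 0.0907) in the arrays labelled Dhh-Cre. Slc39a8 (ZIP8) read 8.75 in one array labelled Dhh-Cre and 6.97 in the other, so its difference of -1.43 ± 0.57 was -0.55 without Dhh-Cre replicate 2 (adjusted p = 0.296) and -2.32 without Dhh-Cre replicate 1 (adjusted p = 0.00292). Another probe set of Slc39a8 differed by -2.80 in Sf1-Cre and -3.14 under the Dhh-Cre label. Slc39a7 (ZIP7), which releases zinc from the endoplasmic reticulum, rose 7.23-fold and 8-fold, and Slc30a7 rose 9.25-fold and 5.53-fold. By another probe set Slc30a7 differed by 0.66 and 1.56. Slc30a1, the plasma membrane zinc exporter, was 1.59-fold and 2.63-fold above control by its brightest probe set, while another probe set of the gene differed by -3.56 and -2.99. The copper importer Slc31a1 (CTR1) rose 2.3-fold and 3.9-fold by its brightest probe set, which stood at -0.50 and 0.27 with centring. By another probe set Slc31a1 differed by -0.20 and 0.70 before centring.

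The Slc35 family, with 22 members, was taken as 1 class, named for the nucleotide sugar carriers that feed glycosylation in the Golgi. Not every member, Slc35f2 for one, is known as such a carrier. The Slc35 members were mostly higher, 17 against 3 lower in Sf1-Cre and 18 against 2 in the arrays labelled Dhh-Cre. With housekeeping centring this became 3 against 13 and 6 against 9. Slc35g3 went from 9.11 and 9.07 in the controls to between 2.35 and 4.83 in the Cre arrays, 33.5-fold and at least 34-fold lower. Slc35a3, which carries UDP-N-acetylglucosamine, was 5.19-fold and 8.92-fold lower, but another probe set was higher by 1.06 and 1.25. Slc35d2 rose 18.8-fold and 9.98-fold, the GDP-fucose carrier Slc35c1 5.26-fold and 13.7-fold and the CMP-sialic acid carrier Slc35a1 at least 2.78-fold and at least 3.27-fold. With centring Slc35d2 passed in both and Slc35c1 did not in Sf1-Cre, at 0.70. The control mean of Slc35a1 lay under the floor, so its rise is given without a test. Another probe set of Slc35a1 differed from control by only 0.07 and 0.32 before centring.

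In 2 of the smaller classes most members were higher, beside 46.6% and 49.1% of all genes. Fatty acid, choline and acetyl-CoA carriers had 6 higher of 8 in both comparisons and 1 lower in Sf1-Cre, with 2 and 3 higher and 2 lower in each after centring. The 1 lower before centring was the long-chain fatty acid transporter Slc27a2, at least 1.64-fold lower in Sf1-Cre, which did not pass without control replicate 1 (-0.62, adjusted p = 0.0703). The choline carriers Slc44a1 and Slc44a3 rose 8.17-fold and 7.74-fold in Sf1-Cre and 7.47-fold and 3-fold under the Dhh-Cre label. Centring left Slc44a3 at -0.11 under that label. Vitamin carriers had 5 higher of 7 in Sf1-Cre and 6 in the arrays labelled Dhh-Cre, none lower, with 2 and 3 higher and 2 lower in each after centring. Slc46a3, a lysosomal relative of the proton-coupled folate carrier, rose 12.4-fold and 8.46-fold, and that folate carrier, Slc46a1, 7.13-fold and 16-fold. The thiamine transporter Slc19a2, needed for male germ cell survival in mice, lay between 10.22 and 10.62 in all 8 arrays and differed from control by 0.21 ± 0.13 and 0.05 ± 0.16. Of the 3 nucleoside carriers 1 was higher and 1 lower in Sf1-Cre and 2 and 1 under the Dhh-Cre label, and with centring 2 were lower in each. Slc29a1 (ENT1) rose 3.64-fold and 2.14-fold and the lysosomal Slc29a3 (ENT3) fell 2.02-fold and 3.32-fold. The Slc29a1 difference under the Dhh-Cre label was 1.10, and 0.69 without Dhh-Cre replicate 2. With centring it stood at 0.17 and -0.59, neither passing.

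**Figure D4:**
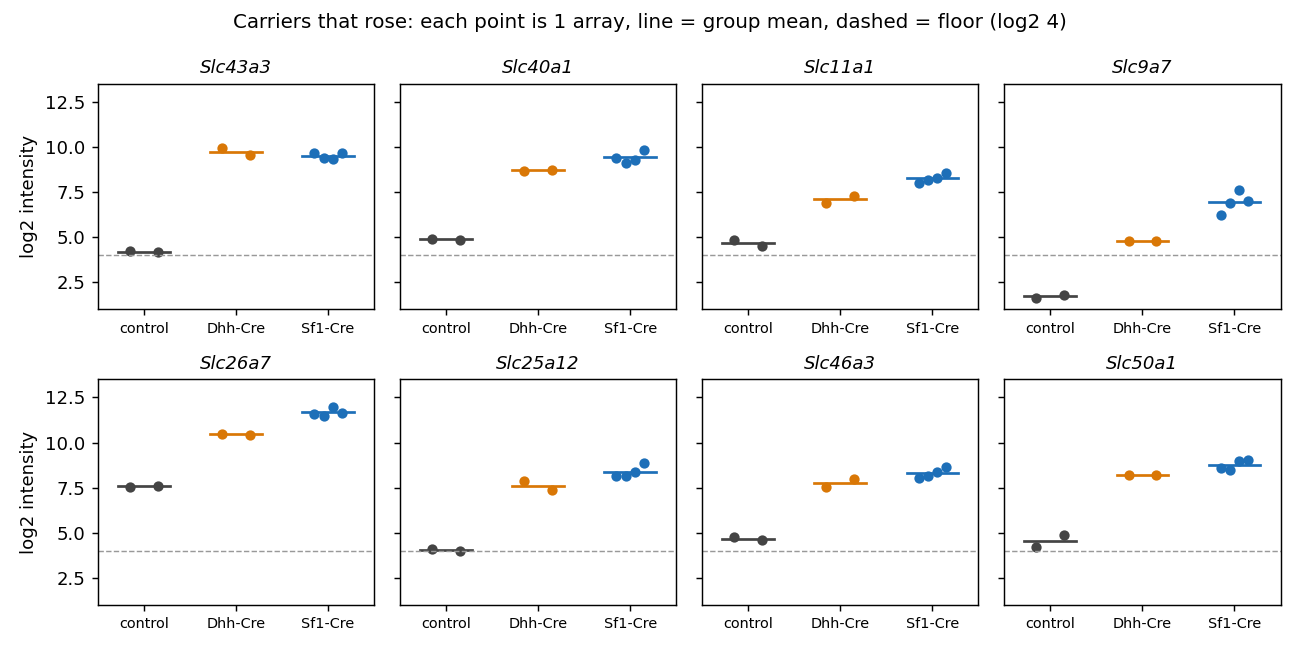
Log2 intensity of 8 carriers that rose, 1 point per array, with group means as lines and the floor of log2 4 dashed. The Cre arrays lie above both controls in each panel, and in every panel but that of Slc43a3 the Sf1-Cre arrays also lie above those labelled Dhh-Cre. The 8 are a selection. Of all members higher in both comparisons, 99 did not pass between the Cre groups, 23 were lower in Sf1-Cre and 13 higher.

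The regions just upstream of the genes with the largest changes are shown with their CG content, a property the array did not measure. They are the 3 largest falls and the 3 largest rises in Sf1-Cre, by the fitted difference, among members with a single window in the RefSeq promoter table (build GRCm38.p6). Each is the 250 bases before the annotated start, 5′ to 3′ on the gene's strand, with the dinucleotide CG in capitals. The falls are Slc1a2 (chr2:102706188-102706437, plus strand), Slc36a3 (chr11:55151709-55151958, minus strand) and Slc35g3 (chr11:69761845-69762094, minus strand). The rises are Slc9a7 (chrX:20291828-20292077, minus strand), Slc25a12 (chr2:71367756-71368005, minus strand) and Slc50a1 (chr3:89270571-89270820, minus strand).
Slc1a2: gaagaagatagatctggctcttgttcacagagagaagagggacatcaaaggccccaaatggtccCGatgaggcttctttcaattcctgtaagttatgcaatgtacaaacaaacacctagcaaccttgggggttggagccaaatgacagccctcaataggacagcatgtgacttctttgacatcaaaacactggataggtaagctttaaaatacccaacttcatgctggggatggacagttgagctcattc
Slc36a3: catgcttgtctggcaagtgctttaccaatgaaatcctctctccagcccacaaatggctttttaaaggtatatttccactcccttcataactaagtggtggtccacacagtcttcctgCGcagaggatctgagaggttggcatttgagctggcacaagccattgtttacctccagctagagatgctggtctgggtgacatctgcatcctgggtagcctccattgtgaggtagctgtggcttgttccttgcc
Slc35g3: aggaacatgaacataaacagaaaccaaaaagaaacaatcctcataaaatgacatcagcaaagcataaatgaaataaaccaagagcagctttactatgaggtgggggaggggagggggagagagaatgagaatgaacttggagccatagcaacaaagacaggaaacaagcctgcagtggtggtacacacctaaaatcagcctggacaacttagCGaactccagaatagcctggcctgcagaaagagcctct
Slc9a7: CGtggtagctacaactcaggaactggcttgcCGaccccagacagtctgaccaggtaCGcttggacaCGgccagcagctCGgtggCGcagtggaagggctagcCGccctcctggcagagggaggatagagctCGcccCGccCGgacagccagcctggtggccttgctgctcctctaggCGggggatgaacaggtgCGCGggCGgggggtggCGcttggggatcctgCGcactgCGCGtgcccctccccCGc
Slc25a12: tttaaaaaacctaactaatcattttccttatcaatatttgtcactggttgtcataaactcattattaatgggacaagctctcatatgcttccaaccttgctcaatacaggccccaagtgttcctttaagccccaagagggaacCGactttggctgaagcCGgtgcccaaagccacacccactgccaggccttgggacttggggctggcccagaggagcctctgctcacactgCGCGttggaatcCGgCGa
Slc50a1: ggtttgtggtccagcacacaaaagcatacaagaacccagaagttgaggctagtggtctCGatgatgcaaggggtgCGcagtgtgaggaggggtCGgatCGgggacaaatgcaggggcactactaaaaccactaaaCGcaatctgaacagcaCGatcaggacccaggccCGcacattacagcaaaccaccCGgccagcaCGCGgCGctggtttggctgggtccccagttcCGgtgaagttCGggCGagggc

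Each window of the 3 falls held 1 CG, at 44.8%, 49.6% and 44.4% G and C, and the windows of the rises held 19, 6 and 14, at 69.6%, 49.6% and 58.4%. Over the 191 members with a window the median was 14 CG dinucleotides and 60.8% G and C, against 6 and 52.4% over all 27025 genes of the table. Among members lower in both comparisons (43 genes) the medians were 10 and 56.0%, and among members higher in both (107 genes) 14 and 61.6%, so the low counts of the 3 leading falls are not typical of the falls. Falling members with many CG included Slc34a2, with 28, and Slc2a5, with 15. Rising members with few CG included Slc9a9, with 3, and Slc15a2, with 4, so low counts were not confined to the falls. These are descriptions of annotated starts, and the start used in testis was not measured.

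Both strands of the member windows were searched for 3 motifs. The DM-domain core ACANTGT was in 2.85% of the 246 windows of members (6.47% of all 32851 windows of that length), the NR5A1 half-site CAAGGTCA in 0.407% (1.33%) and the cAMP response element TGACGTCA in 1.22% (1.55%). No motif contains another. A match or its absence in these windows says nothing about binding of the factor.

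The Cre groups were compared directly, with 4 arrays against 2. In Sf1-Cre 32 carriers were higher and 49 lower than in the arrays labelled Dhh-Cre, 13.3% and 20.3% of the members beside 12.9% and 11.8% of all genes tested. The 2 groups did not overlap for 69 members upward and 69 downward, against 24.5% and 23.2% of all genes. The median difference was 0.01, and housekeeping centring moved the counts to 30 and 45, beside 10.3% and 9.8% of all genes. Centring by gene gave 30 and 45 as well, beside 11% and 10.8%. The counts depend on single arrays, with 11 higher and 29 lower without Dhh-Cre replicate 1 and 21 higher without Dhh-Cre replicate 2. Calls over all genes fell too, from 1778 higher and 1624 lower to 519 and 715 without Dhh-Cre replicate 1, and to 1099 higher without replicate 2. They were 11 and 20 without the 3 arrays (Dhh-Cre 1, Sf1-Cre 1 and Sf1-Cre 3) in which Spink8, an epididymal gene, reached log2 10, beside 395 and 421 over all genes. By class, the lower calls were 9 of 41 for amino acids, 8 of 28 for metals, 7 of 29 for inorganic ions and 5 of 17 for sugars. For mitochondrial carriers they were 5 of 43, for carboxylates 4 of 13 and for vitamins 3 of 7. Organic ions and nucleotide sugars had 3 of 22 each, fatty acids 1 of 8 and nucleosides 1 of 3.

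In 8 carriers the fitted differences from control had opposite signs, lower in Sf1-Cre and higher in the arrays labelled Dhh-Cre, and both passed: Slc5a3, Slc9a2, Slc13a2, Slc16a10, Slc24a3, Slc26a2, Slc35f2 and Slc41a2. These were picked out after their values were seen. For Slc13a2 the control and Sf1-Cre means both lay under the floor, so its fall is not a measured one, and for Slc9a2 the Sf1-Cre arrays did. The floor rule admitted Slc13a2 through the arrays labelled Dhh-Cre alone, so its being highest there was fixed in advance. With values under the floor set to it, the Sf1-Cre difference from control was 0 for Slc13a2 and -0.18 for Slc9a2 (adjusted p = 0.133). With Slc13a2 set aside, the difference between the Cre groups passed for each of the other carriers in every fit that left out 1 Sf1-Cre array. That of Slc13a2 did not pass with low values set to the floor (adjusted p = 0.0654). Slc35f2, which takes up queuosine, read 6.58 and 6.61 without Cre, 8.84 and 9.34 under the Dhh-Cre label, and 6.47, 5.34, 5.62 and 5.47 with Sf1-Cre. Its difference between the Cre groups was -3.36 ± 0.32 (10.3-fold lower in Sf1-Cre, adjusted p = 0.0006). Slc9a2 (NHE2), a sodium-proton exchanger, read 2.83, 2.65, 2.79 and 2.76 in the 4 Sf1-Cre arrays, 6.09 and 6.07 for the Dhh-Cre label and 4.08 and 4.28 in both controls, and was at least 4.23-fold lower in Sf1-Cre than under the Dhh-Cre label (adjusted p = 1.17e-05). Of the other 6, 5 differed by -1.82 for the myo-inositol carrier Slc5a3, -1.70 for the aromatic amino acid carrier Slc16a10, -1.67 for the calcium exchanger Slc24a3, -1.39 for the sulfate carrier Slc26a2 and -1.36 for the magnesium carrier Slc41a2. The dicarboxylate carrier Slc13a2 was at least 1.2-fold lower.

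The opposite directions themselves are less firm than the gap between the groups. With housekeeping centring all 8 were lower than control in Sf1-Cre, and 6 were below control under the Dhh-Cre label too, while Slc35f2 stood at 0.80 and Slc9a2 at 0.21. With the smaller recentring by gene, Slc13a2 (-0.40) and Slc26a2 (-0.04) were below control under that label. Against control in Sf1-Cre, Slc24a3 and Slc41a2 passed narrowly (adjusted p = 0.0496 and 0.0486), with adjusted p up to 0.16 and 0.268 over the alternatives. For Slc35f2 (-0.87) and Slc5a3 (-0.54) it reached 0.185 and 0.13, and another probe set of Slc5a3 differed by 0.06. Against control under the Dhh-Cre label, Slc24a3 (0.99, adjusted p = 0.0199) reached 0.729. Slc13a2, at least 1.2-fold higher there, is a member through that group alone, so its rise is given without a test.

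A further 12 carriers passed as higher under the Dhh-Cre label and lower in Sf1-Cre than there, with no call between Sf1-Cre and control. Slc18a1, Slc2a12 and Slc29a4 among them reached the floor only in the arrays labelled Dhh-Cre. The floor rule admitted them through that group, so their being highest there was fixed in advance. Slc52a3 (RFVT3), a riboflavin transporter, read 7.79 and 7.61 without Cre, 11.03 and 10.76 under the Dhh-Cre label, and 8.18, 7.97, 7.65 and 6.93 with Sf1-Cre, 9.16-fold above control under the Dhh-Cre label and 9.27-fold lower in Sf1-Cre (adjusted p = 0.000778). Slc11a2 (DMT1), the ferrous iron importer, read 6.36, 6.16, 6.26 and 6.59 in the 4 Sf1-Cre arrays, 8.68 and 8.48 for the Dhh-Cre label and 6.51 and 6.23 in both controls, 4.6-fold above control under that label. Slc1a5 (ASCT2), a glutamine carrier, was 4.09-fold above control there, with adjusted p from 0.00163 to 0.0924 for the Cre difference over the alternatives. In another 23 carriers both Cre groups rose and Sf1-Cre stayed lower. Slc1a4 (ASCT1) rose 5.58-fold in Sf1-Cre and 20.5-fold under the Dhh-Cre label, the X-linked creatine carrier Slc6a8 6.4-fold and 20.7-fold, and the fatty acid carrier Slc27a3 2.19-fold and 11.7-fold. The Slc27a3 rise in Sf1-Cre was 0.87 without control replicate 1 (adjusted p = 0.088) and stood at -0.57 with centring. Of the 23, 9 still passed between the Cre groups without Dhh-Cre replicate 1 and 4 without the 3 arrays with Spink8, and of the 12, 8 and 5 did.

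Sertoli cell genes moved beside these carriers. The summed intensity of a Sertoli list ran from 20916 to 22894 in Sf1-Cre, against 20246 and 20696 without Cre, and was 34112 and 36445 under the Dhh-Cre label, and 7 of its 10 tested genes were lower in Sf1-Cre than under the Dhh-Cre label. Amh, one of its defining genes, did not reach the floor. A part of Sertoli cell number in the carrier differences was not tested.

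**Figure D5:**
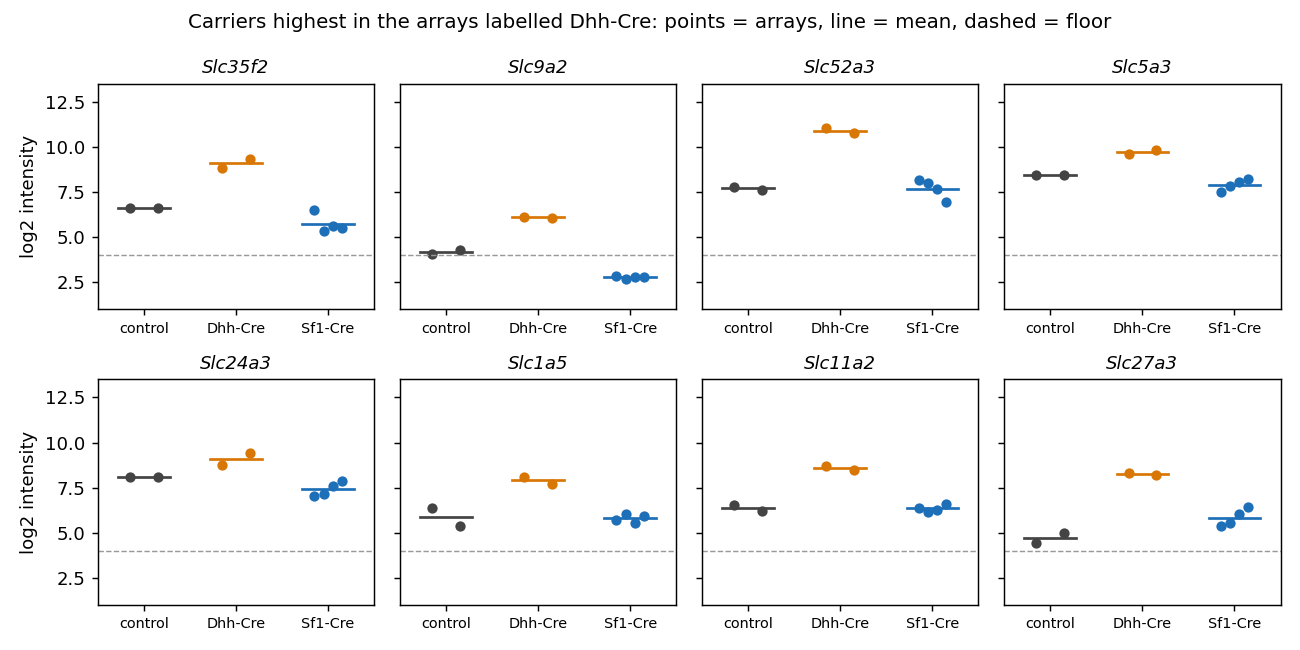
Log2 intensity of 8 carriers that were highest in the arrays labelled Dhh-Cre, 1 point per array, with group means as lines and the floor of log2 4 dashed. The 2 arrays labelled Dhh-Cre lie above all others in each panel, and for Slc35f2, Slc9a2, Slc5a3 and Slc24a3 the Sf1-Cre arrays lie below both controls, those of Slc9a2 under the floor.

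Higher in Sf1-Cre than under the Dhh-Cre label were 13 carriers that fell against control in both comparisons, among them Slc16a7, Slc2a5, Slc13a5, Slc9b1, Slc34a2 and 3 members of the Slc22 family. For Slc39a12 and Slc17a6 both Cre means lay under the floor, so their order there is not a measured one. Other probe sets differed less between the Cre groups, by 0.27 for Slc13a5 and by 1.24 and 0.02 for Slc9b1. In all 13, Sf1-Cre replicate 1 was the highest of its group, and replicate 4 the lowest in 11. Of all genes tested, 34.2% had replicate 1 highest and 31.7% had replicate 4 lowest. Within Sf1-Cre the spermatid list showed the same, with replicate 1 highest for 14 of 15 genes and replicate 4 lowest for 13. Its summed intensity in Sf1-Cre was 12280, 7360, 4905 and 3111. Between the Cre groups the list did not share the order of these carriers. Of its 15 genes 2 were higher and 1 lower in Sf1-Cre, and its sums under the Dhh-Cre label were 1872 and 14397. The Cre difference was 3.18 ± 0.33 for Slc2a5 (adjusted p = 0.000818) and 3.07 ± 0.44 for Slc22a16 (adjusted p = 0.00315). For Slc16a7 it was 3.04 ± 0.70 (adjusted p = 0.0187), 2.26 without Dhh-Cre replicate 1 (adjusted p = 0.15) and 1.86 without the 3 arrays with Spink8 (adjusted p = 0.188). Of the 13, 3 passed without Dhh-Cre replicate 1, 9 without Dhh-Cre replicate 2 and 4 without the 3 arrays with Spink8.

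Another 13 carriers rose in both comparisons and stood higher in Sf1-Cre, among them Slc9a7, Slc9a9, Slc26a7, Slc11a1, Slc40a1 and the vesicular zinc carrier Slc30a7. By another probe set Slc30a7 was lower in Sf1-Cre than under the Dhh-Cre label, at -0.91. Slc14a1, Slc15a3 and Slc23a2, also among the 13, reached the floor only in Sf1-Cre arrays. The floor rule admitted these through Sf1-Cre, so their being highest there was fixed in advance. Their rise under the Dhh-Cre label is not a measured one. For Slc9a7 the Cre difference was 2.16 ± 0.33 (adjusted p = 0.00422), with adjusted p up to 0.0343 over the alternatives. For Slc26a7 it was 1.22 ± 0.17 (adjusted p = 0.00269), up to 0.0607. Of the 13, 6 passed without Dhh-Cre replicate 1, 7 without replicate 2 and 5 without the 3 arrays with Spink8. Granulosa genes moved the same way, with 4 of 6 tested higher in Sf1-Cre than under the Dhh-Cre label and summed intensities of 911 and 931 in the controls, 4665 and 5502 under the Dhh-Cre label and 6466 to 8913 in Sf1-Cre. Their part in these differences was not tested.

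All 8 X-linked members were higher in both comparisons, 3 of them also after housekeeping centring and 1 lower then. Of the 465 X-linked genes tested, 71.8% were higher in Sf1-Cre and 79.1% in the arrays labelled Dhh-Cre. Whether the members differ from these shares was not tested. Among autosomal and X-linked members together, 20 passed in none of the 3 comparisons, Slc19a2, Slc6a6 and Slc9a8 among them by the probe set used. In Sf1-Cre these 3 passed as lower once arrays were recentred by gene, at -0.65, -0.67 and -0.82.

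The probe set used limits some of these values. A further probe set above the floor existed for 82 members, and for 16 called in Sf1-Cre and 15 called under the Dhh-Cre label it had the opposite sign. Besides the cases given above these include the uncoupling protein Slc25a27, which its brightest probe set puts at least 1.88-fold above control in Sf1-Cre and its others at -3.0 and -3.29, and Slc25a30, at least 1.95-fold higher and at -4.04. Both rose from controls under the floor. Slc31a2 and Slc35a5 were at 3.19 and 0.79, each with another probe set at -2.13. The symbol rule also takes in 5 genes that are not carriers, such as the scaffold proteins Slc9a3r1 and Slc9a3r2, of which Slc9a3r2 and Slc2a4rg-ps were higher in both comparisons and Slc7a6os lower. With centring none of the 5 was higher. Some carriers known from testis were below the floor: Slc5a1, Slc8a1, Slc19a3 and Slc28a3 did not exceed 3.86 in any array, and Slc26a3 reached 4.57 in 1. Slc9c1 is not analysed here.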

How the data were processed

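Total RNA from the testes of 8 mice was hybridized to 1 array of 45101 probe sets each, per the labels' protocols. The intensity values deposited by the authors were made with GCRMA, per the submitters' processing notes. Its version is not given there. The values are on a linear scale, and log2 was taken. Symbols come from the platform annotation, updated through the GRCm38.p6 gene table: 34958 probe sets carry 1 symbol, 932 several and 9211 none.

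The number of arrays limits the precision. The 3 group means were fitted to all 8 arrays for 13802 genes with limma (version 3.58.1, in R 4.3.3, tables read by data.table version 1.17.8), which left 5 residual and gave 2.73 prior degrees of freedom. The 2-sided p-values were adjusted by Benjamini and Hochberg over those genes, and a gene passed when that value was under 0.05. Standard errors (SE) are those of limma. A fold that involves a mean below log2 4 is a lower bound set at that floor. Where both means lie below it no fold is printed. The fit was tested on simulated data.

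The members, the substrate classes and the marker lists were chosen with earlier results of these data known. Named members are the largest calls of each class and comparison and a fixed list of carriers known from testis, plus 15 named after their values were seen. Of 56 carriers on the fixed list 49 are members. Alternatives were housekeeping centring on the array median of the list and, added after seeing the data, on its genes' deviations, quantile normalization, other filters, floors, thresholds and moderation, array weights, the mean of all probe sets, the 2 groups alone, a replicate block and leaving out arrays. Tables and figures were made with Python 3.11.15, pandas 2.3.3 and matplotlib 3.10.9.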

Additional observations from a re-analysis of the deposited data

Results flagged for a closer look

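In 3 of the 116 named members 1 Sf1-Cre array stood apart from the other 3 of its group, by a gap to the nearest array whose share of the group's range was above Dixon's limit for a group of 4. Chance gives such a gap in about 1 in 20 groups. Slc16a1 read 10.88 in replicate 2 and 10.32 to 10.38 in the others, a share of 0.9. Slc39a8 read 10.50 in replicate 3 and 9.44 to 9.53 in the others, a share of 0.913. Slc66a1, a lysosomal cationic amino acid exporter, read 8.28 in replicate 4 and 7.22 to 7.39 in the others, a share of 0.841.

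In 8 carriers the fitted differences of the Cre groups from control had opposite signs and the difference between them (Sf1-Cre minus the arrays labelled Dhh-Cre, log2) passed in limma's fit. It was -3.36 for Slc35f2, -3.32 for Slc9a2, -1.82 for Slc5a3, -1.70 for Slc16a10, -1.67 for Slc24a3, -1.54 for Slc13a2, -1.39 for Slc26a2 and -1.36 for Slc41a2. Slc13a2 lay under the floor of log2 4 in the control and Sf1-Cre means and Slc9a2 in Sf1-Cre, so their fitted values run against levels not measured. Since Slc13a2 reached the floor only in the arrays labelled Dhh-Cre, its being highest there was fixed in advance.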

How the results depend on the processing

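Housekeeping centring changed most. On the array median of the list it gave 43 higher and 142 lower members against control in Sf1-Cre, and 56 and 120 under the Dhh-Cre label. It put on the other side of 0, in Sf1-Cre, Slc12a2 -1.06, Slc16a1 -0.37, Slc16a3 -1.17, Slc16a4 -0.06, Slc19a2 -1.49, Slc20a1 -0.93, Slc22a5 -0.72, Slc23a2 -0.16, Slc25a27 -0.26, Slc25a4 -0.82, Slc25a5 -0.01, Slc26a6 -0.59, Slc27a1 -0.11, Slc27a3 -0.57, Slc2a1 -0.29, Slc30a1 -1.03, Slc31a1 -0.50, Slc35a5 -0.90, Slc39a8 -1.24, Slc6a6 -1.51, Slc7a5 -0.23, Slc9a3r2 -0.69 and Slc9a8 -1.65, and under the Dhh-Cre label Slc12a2 -0.97, Slc13a2 -1.24, Slc14a1 -0.69, Slc15a3 -0.90, Slc16a1 -0.20, Slc16a10 -0.62, Slc16a12 -0.44, Slc16a3 -1.0, Slc19a2 -1.65, Slc20a1 -0.58, Slc22a5 -0.68, Slc23a2 -0.73, Slc24a3 -0.70, Slc25a27 -1.05, Slc25a30 -0.34, Slc25a4 -0.49, Slc26a2 -0.87, Slc26a6 -0.14, Slc27a1 -0.12, Slc29a1 -0.59, Slc2a1 -0.25, Slc30a1 -0.30, Slc35a5 -0.92, Slc39a6 -1.32, Slc41a2 -0.83, Slc44a3 -0.11, Slc5a3 -0.41, Slc7a5 -0.24 and Slc9a3r2 -0.51. Centring by gene, chosen after seeing the data, gave 93 higher and 97 lower in Sf1-Cre and 98 higher under the Dhh-Cre label. It put on the other side, in Sf1-Cre, Slc12a2 -0.22, Slc16a3 -0.34, Slc19a2 -0.65, Slc20a1 -0.10, Slc30a1 -0.19, Slc35a5 -0.07, Slc6a6 -0.67 and Slc9a8 -0.82, and under the Dhh-Cre label Slc12a2 -0.14, Slc13a2 -0.40, Slc15a3 -0.07, Slc16a3 -0.17, Slc19a2 -0.81, Slc25a27 -0.22, Slc26a2 -0.04 and Slc35a5 -0.09. Averaging every probe set of a gene put on the other side of 0, in Sf1-Cre, Slc25a27 -1.23, Slc30a1 -1.45, Slc35a5 -0.14, Slc39a8 -1.17, Slc6a6 -1.30 and Slc9a8 -0.40, under the Dhh-Cre label Slc25a27 -1.47, Slc30a1 -0.79 and Slc35a5 -0.14, and between the Cre groups Slc30a7 -0.08. With no filter on low values 95 members were lower in Sf1-Cre and 83 under the Dhh-Cre label, since Slc genes under the floor were then tested as well.

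Between the Cre groups, an adjusted p under 0.01 left 16 higher and 31 lower, at least a 2-fold difference left 31 lower, and leaving out the 3 arrays with Spink8 left 11 and 20. Leaving out 1 array at a time gave 11 to 36 higher and 29 to 48 lower. Against control it gave 130 to 140 higher and 52 to 62 lower in Sf1-Cre, and 139 to 157 and 47 to 53 under the Dhh-Cre label.

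The replicate numbers were not taken as pairs in the main fit. Deviations of same-numbered arrays from their group means correlated at -0.194 to 0.38. In a group of 2 arrays the deviations mirror each other, so these correlations cannot decide whether the samples were paired. With a replicate block the counts were 133 higher and 57 lower in Sf1-Cre, 154 and 51 under the Dhh-Cre label, and 29 and 42 between the Cre groups. Of 7590 values of named members under the alternatives, 7060 kept direction and side of the threshold, 390 lost their call, 62 gained one and 78 changed sign. The cause of these changes was not tested. With 2 arrays in each of 2 groups, the spread within them is known only roughly.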
